A study of Mus musculus with 16 samples.

Results

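The genes described here mark B cells and plasma cells, the antibody-making branch of the lymphocytes. They are 34 mouse genes given by symbol, of the 33269 gene names on the array, and 33 of them had a probe that could be named. Cd40 had no named probe and is not analysed here. The members were set in 3 lists: 26 mature B cell genes, 6 plasma cell genes (Jchain, Mzb1, Sdc1, Prdm1, Tnfrsf17 and Irf4) and 2 genes of both stages (Pou2af1 and Tnfrsf13b). Where a gene had several probes, the brightest stood for it.

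Gene expression was measured on 16 one-colour arrays in 4 groups of 4, whole liver or hepatic inflammatory cells, each after PBS or ADSC. All groups were labelled as female C57Bl/6 mice, made cirrhotic with an atherogenic high-fat diet for 40 weeks. ADSC are adipose tissue-derived stem cells, grown from inguinal fat of GFP-transgenic mice and given as 2 injections of 100000 cells under the spleen capsule, 2 weeks apart. Tissue was collected 2 weeks after the final dose, and the control groups were labelled PBS (phosphate-buffered saline). PBS arrays bear the numbers 11 to 14 and ADSC arrays 7 to 10. Nothing in the labels ties a number to an animal or says that arrays came from different animals, so p-values measure only the spread between samples, which may be technical. The extraction protocol speaks of cells infiltrating a tumor and of blood, which leaves the isolation of the fraction unclear.

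B cells carry a surface immunoglobulin that signals through the Cd79a and Cd79b chains, with coreceptors such as Cd22 and Cr2 setting the threshold. Transcription factors including Ebf1, Pax5 and Spib hold this identity. On differentiation to plasma cells, Irf4 and Prdm1 shut much of it down, and the cell turns to antibody assembly with proteins such as Jchain and Mzb1. Bulk arrays cannot tell fewer cells of a type from less RNA per cell.

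Promoter windows of 4 mature B cell genes are shown because Cd22 had the largest difference between treatments, Zfp318 passed the test, and Blnk and Vpreb3 hold a B cell motif. Each window is from RefSeq, build GRCm38.p6, and runs from 250 bases before to 50 bases after the gene's start, on the gene's strand. Capitals mark the octamer ATGCAAAT (or ATTTGCAT on the other strand), read by the partners of Pou2af1, or the palindrome of 10 bases read by Ebf1. Cd22 lies at chr7:30878979-30879278 on the minus strand, Zfp318 at chr17:46383516-46383815 on the plus strand, Blnk at chr19:40994172-40994471 on the minus strand and Vpreb3 at chr10:75948050-75948349 on the plus strand.
Cd22: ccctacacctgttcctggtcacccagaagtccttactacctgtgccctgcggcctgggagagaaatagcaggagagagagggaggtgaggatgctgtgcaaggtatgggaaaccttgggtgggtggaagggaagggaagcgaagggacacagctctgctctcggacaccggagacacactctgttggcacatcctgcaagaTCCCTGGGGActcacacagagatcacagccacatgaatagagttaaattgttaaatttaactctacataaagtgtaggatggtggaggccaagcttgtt
Zfp318: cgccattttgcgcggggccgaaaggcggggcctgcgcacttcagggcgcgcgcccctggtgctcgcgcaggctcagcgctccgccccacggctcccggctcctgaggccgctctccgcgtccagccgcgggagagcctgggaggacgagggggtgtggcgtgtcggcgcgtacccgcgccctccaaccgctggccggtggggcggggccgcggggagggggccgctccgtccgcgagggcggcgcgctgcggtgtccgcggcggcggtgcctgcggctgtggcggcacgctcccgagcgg
Blnk: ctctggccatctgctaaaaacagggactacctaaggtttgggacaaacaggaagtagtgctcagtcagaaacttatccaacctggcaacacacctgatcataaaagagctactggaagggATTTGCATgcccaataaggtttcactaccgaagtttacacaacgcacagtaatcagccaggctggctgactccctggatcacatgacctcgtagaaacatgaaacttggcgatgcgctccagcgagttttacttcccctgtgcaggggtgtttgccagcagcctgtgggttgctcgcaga
Vpreb3: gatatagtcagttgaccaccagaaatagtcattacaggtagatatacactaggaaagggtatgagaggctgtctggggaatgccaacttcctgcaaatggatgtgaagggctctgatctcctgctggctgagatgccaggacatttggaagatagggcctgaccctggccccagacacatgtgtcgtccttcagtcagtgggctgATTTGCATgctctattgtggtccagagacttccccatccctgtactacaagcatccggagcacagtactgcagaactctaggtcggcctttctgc

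A window was found for 28 members, 34 windows in all. The search covered 13 motifs on both strands and was chosen after earlier matches in these windows had been seen, so the shares are descriptions only. The octamer was in 2 of the 34 windows (Blnk and Vpreb3) and in 1.74% of all 32851 windows. The Ebf1 palindrome was in 1 (Cd22) against 0.904%, and GAGGAAGT, bound by the Spib family, was in 2 (Cd37 and Cd72) against 3.2%. AGAGGAAG was in 4 windows against 4.55%, an interferon response element (IRF type) in 3 against 3.44%, an ETS-IRF composite in 1 against 2.72%, a MEF2 site in 1 against 0.164%, and an NF-kB site in 0 against 0.155%. Of the commoner motifs, CCCNNGGG was in 4 against 13.7%, CAGCTG in 3 against 16.3%, TATAAA in 7 against 13.6%, TGCAAA in 7 against 15.5% and CCAAT in 10 against 37.4%. Several overlap: TGCAAA lies within the octamer and CCCNNGGG within the longer palindrome. The share was higher in the members' windows for 9 of the 13 and lower for 4. The Zfp318 window holds no octamer, palindrome or GAGGAAGT.

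Levels below are log2 processed signal minus the array's 75th percentile, compared only within a probe. Between 51.6% and 66.3% of spots were well above background, and the 75th percentile was lowest, 123.4, on inflammatory cells ADSC 8 and highest, 552.8, on liver PBS 12. Correlations within groups ran from 0.921 to 0.984. Exocrine pancreas genes were high on inflammatory cells PBS 11, PBS 13 and ADSC 10, with list means of 6.38, 8.26 and 8.52, against -1.72 to 2.39 on the other inflammatory cell arrays.

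Whether the isolated fraction held the B lineage was asked by comparing it with whole liver. Of 31 tested members, 29 were higher in inflammatory cells, 1 was lower and 1 was not called (limma, adjusted p under 0.05). Among all 22139 genes tested, 48.9% were called higher and 35.4% lower. The median log2 difference was 3.38 for 24 mature B cell genes and 2.79 for 6 plasma cell genes, against 0.35 over all genes. These counts include 9 members not above background on every liver, which could pass the filter through the inflammatory cells where they are high. Of the 22 members above background on all 16 arrays, 20 were higher and 1 lower. Their medians were 2.01 for mature and 2.22 for plasma cell genes, against -0.1 over the 12823 genes so filtered. Of those 12823 genes, 4841 were called higher and 5598 lower. Every T cell gene tested was higher too, 8 of 8, and all 9 hepatocyte genes were lower.

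Surface and receptor genes showed large differences. Tnfrsf13c, the receptor for the survival factor BAFF, was above background on all 16 arrays and higher by 5.36 ± 0.26 (SE, 8 arrays against 8, limma adjusted p = 2.32e-11). Ms4a1, which encodes CD20, was higher by 5.22 ± 0.31 and Fcmr, the IgM receptor, by 5.08 ± 0.27. Among plasma cell genes, Mzb1, a chaperone for immunoglobulin, was higher by 4.65 ± 0.37 and Jchain, which joins IgA and IgM units, by 3.07 ± 0.51. For other members the size rests on livers at background. Fcer2a, the low-affinity IgE receptor CD23 of follicular B cells, was above background on 1 of 8 livers, with a fitted difference of 5.66 that ran down to 3.38 over the alternatives. Irf4 was above background on 1 of 8 livers, with a fitted 5.86 that ran down to 2.86. Cxcr5, the chemokine receptor for B cell follicles, was above background on 3 of 8, with a fitted 5.63 that ran down to 3.69.

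Sdc1, syndecan-1, went the other way. It read 2.97, 2.33, 2.95 and 2.63 on liver PBS 11 to 14 and 2.53, 2.78, 2.75 and 2.77 on liver ADSC 7 to 10. In inflammatory cells it read -0.80, -1.08, -1.55 and -0.92 on PBS 11 to 14 and -0.49, -0.80, -1.11 and -0.86 on ADSC 7 to 10. All 8 livers were above all 8 inflammatory cell arrays, as for 23.8% of all genes, a difference of -3.67 ± 0.14 (limma adjusted p = 3.23e-12). Sdc1 is also made by hepatocytes. Blnk, the adaptor below the B cell receptor, differed by -0.07 ± 0.17 and was not called, but its sign turned under quantile normalization, to 0.44.

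For the dimmest members the size is given only against a floor, or there was no test. Blk, a B cell Src-family kinase, and Tnfrsf17, the plasma cell receptor BCMA, were both called higher in inflammatory cells. The sizes were at least 2.17-fold for Blk and 1.89-fold for Tnfrsf17, since neither was above background on any liver array. Blk was above background on 6 inflammatory cell arrays and Tnfrsf17 on 4, and the means also take in the dimmer arrays. Pax5 was above background on 3 inflammatory cell arrays, all ADSC, and was at least 1.8-fold higher, untested. Tnfrsf13b was above background on 1 array and was not tested. Of the 31 tested members 23 had inflammatory cell arrays wholly above the livers, where 33.9% of all genes tested did so. The untested Pax5 and Tnfrsf13b also lay wholly above, with livers at background.

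**Figure D1:**
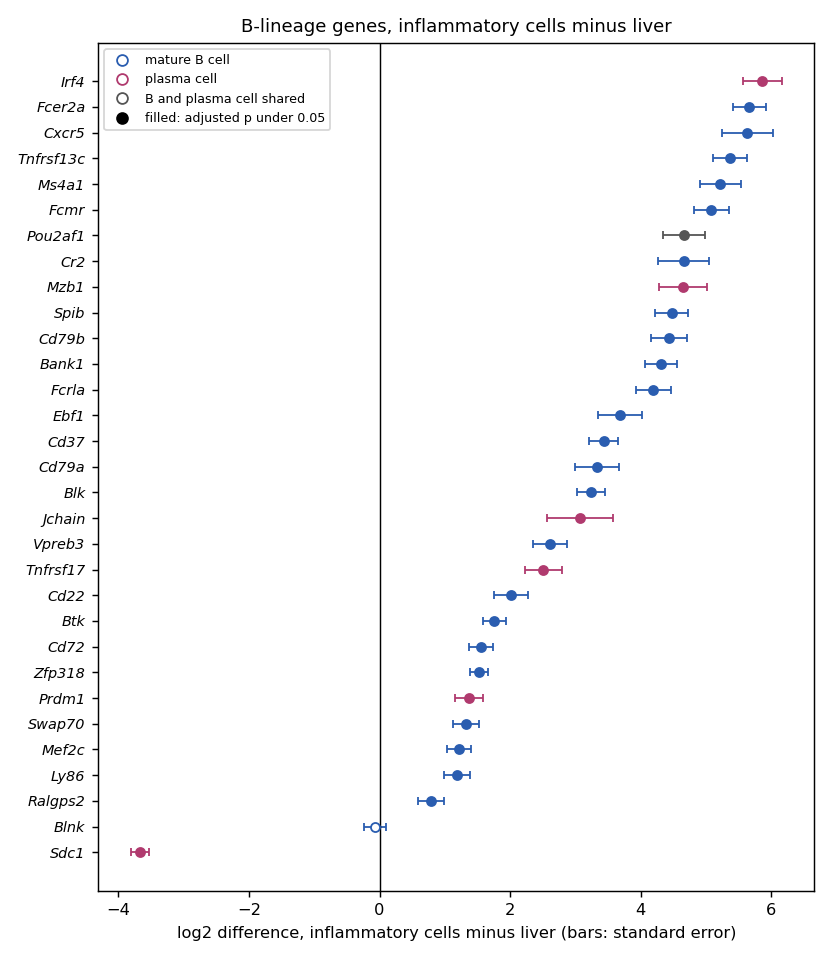
Log2 difference, inflammatory cells minus liver, on the x axis for each of the 31 tested members, with bars of 1 standard error from 16 arrays; filled points have adjusted p under 0.05. Members not above background on every liver, such as Irf4 and Fcer2a, are placed by liver values at background, and Sdc1 at -3.67 is the single called member below 0.

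The study's main question for this fraction is what stem cell treatment did to it. Of 31 members tested in inflammatory cells, 2 were higher with ADSC and 0 lower, where 0.134% of 20165 genes were called higher and 1.05% lower. The 2 were Mef2c and Zfp318. A further 18 members reached an unadjusted p under 0.05, all higher, to make 20, where 9.43% of all genes did. The difference was above 0 for 29 of 31 members (53% of all genes), with a median of 0.99 against 0.03.

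**Figure D2:**
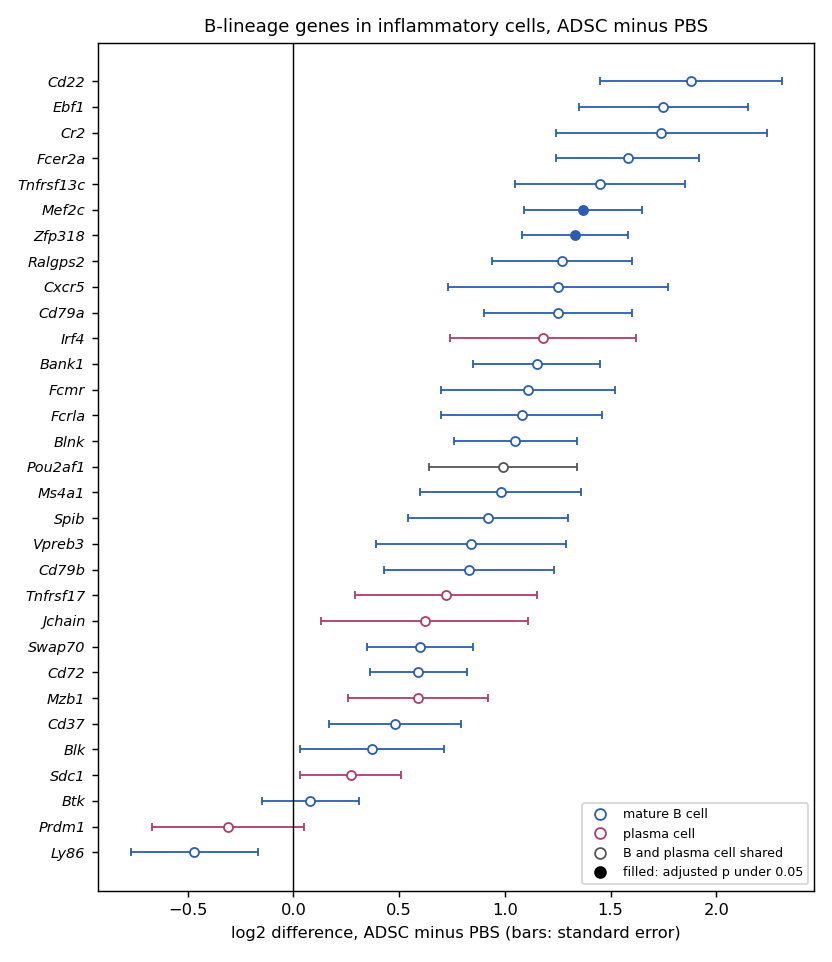
Log2 difference, ADSC minus PBS, in inflammatory cells on the x axis for each of the 31 tested members, with bars of 1 standard error from 8 arrays; filled points have adjusted p under 0.05. All but Prdm1 and Ly86 lie above 0, and Mef2c and Zfp318 are filled.

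Mef2c, a MADS-box factor used in B cell proliferation and also in muscle and myeloid cells, read 0.93, 0.23, 0.27 and 0.46 on PBS 11 to 14. On ADSC 7 to 10 it read 2.38, 1.26, 1.85 and 1.89. All ADSC arrays were above all PBS arrays, a difference of 1.37 ± 0.28 or 2.59-fold (limma adjusted p = 0.0432).

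Zfp318, a zinc finger protein that allows IgD to be made alongside IgM in mature B cells, read 0.51, -0.20, -0.24 and 0.19 on PBS 11 to 14. On ADSC 7 to 10 it read 1.36, 1.00, 1.65 and 1.57. The groups did not overlap, with a difference of 1.33 ± 0.25 or 2.51-fold (limma adjusted p = 0.0321). Its other probes differed by 1.54 and 1.85.

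Both calls were lost in several of the fits with 1 array left out. With 1 array left out, 0 members were called without PBS 12, PBS 13, PBS 14, ADSC 9 or ADSC 10, 2 without ADSC 7, 3 without ADSC 8 and 5 without PBS 11. Over all genes, those fits called 2, 18, 14, 2, 3, 199, 17 and 42 higher, in the same order, against 27 with every array. With slide as a fixed block, or scan day as a term, 0 were called, where 0 and 8 of 20165 genes were called higher. Over 22 alternatives each gene was called in 13, with adjusted p from 0.0058 to 0.176 for Mef2c and 0.0032 to 0.137 for Zfp318. The difference itself ran from 1.17 to 1.57 for Mef2c and from 1.02 to 1.57 for Zfp318 over these alternatives. Single pairs of arrays on the same slide spread more widely. Within slide 2 (PBS 11 and ADSC 8), Mef2c differed by 0.33 and Zfp318 by 0.49. Within slide 3 (PBS 12 and ADSC 7), Mef2c differed by 2.15 and Zfp318 by 1.56.

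Groups that did not overlap were found for 9 of the 31 tested members, all higher with ADSC, where 3.68% of all genes were higher in this way: Cd79a, Cd22, Fcer2a, Blnk, Bank1, Cd72, Mef2c, Zfp318 and Ralgps2. The untested Pax5 and Tnfrsf13b did not overlap either, with no PBS array above background. Cd22, an inhibitory coreceptor, read 0.79, 0.21, -1.58 and -0.49 on PBS 11 to 14 and 1.21, 1.61, 1.82 and 1.81 on ADSC 7 to 10. The PBS arrays spread widely and lay below every ADSC array, a difference of 1.88 ± 0.43 with limma adjusted p = 0.0705.

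Fcer2a read 1.69, 0.43, 1.1 and 0.14 on PBS 11 to 14 and 2.54, 1.91, 2.71 and 2.52 on ADSC 7 to 10. Every ADSC array was higher, by 1.58 ± 0.34 on average (limma adjusted p = 0.0578). Cd79a, the signalling chain of the B cell receptor, differed by 1.25 ± 0.35 (0.124) and its partner Cd79b by 0.83 ± 0.40 (0.29), with overlap for Cd79b. Cr2, complement receptor CD21, differed by 1.74 ± 0.50 at its brightest probe but by -0.59 at its other probe, so the probes disagree.

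By role, the receptor and surface genes had a median difference of 1.11 over 11 tested, the transcription factors 1.33 over 5 and the signalling genes 0.95 over 8. Among signalling genes Bank1, a B cell scaffold, differed by 1.15 ± 0.30, Ralgps2 by 1.27 ± 0.33 and Btk, a kinase shared with myeloid cells, by 0.08 ± 0.23. Ebf1, the early B cell factor, differed by 1.75 ± 0.40 (limma adjusted p = 0.0688), with ADSC 8 at -0.22 just below PBS 11 at -0.21. Ly86 and Prdm1 were the 2 members below 0; Ly86, also made by myeloid cells, differed by -0.47 ± 0.30.

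Mature B cell and plasma cell genes were compared as lists, with no test because the members were chosen with results known. In inflammatory cells the median difference was 1.1 for mature genes and 0.61 for plasma cell genes, 0.49 apart. Without PBS 14 the plasma cell median was 0.29 and the gap 0.67, and with each array left out the plasma cell median ran from 0.29 to 0.79. None of the 6 plasma cell genes was called, 0 had groups that did not overlap, and 1, Irf4, had an unadjusted p under 0.05. Irf4 differed by 1.18 ± 0.44, Tnfrsf17 by 0.72 ± 0.43, Jchain by 0.62 ± 0.49, Mzb1 by 0.59 ± 0.33, Sdc1 by 0.27 ± 0.24 and Prdm1 by -0.31 ± 0.36.

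The list means on each array show how close the groups lay. Mature genes averaged 1.51, 1.38, 1.11 and 0.71 on PBS 11 to 14 and 2.54, 1.56, 2.38 and 2.32 on ADSC 7 to 10. ADSC 8, the lowest of its group, lay just above PBS 11, the highest of its own, so the mature means did not overlap. Plasma cell genes averaged 0.33, 0.67, 0.34 and -0.30 on PBS and 1.01, 0.49, 0.95 and 0.65 on ADSC, and here the groups overlapped.

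**Figure D3:**
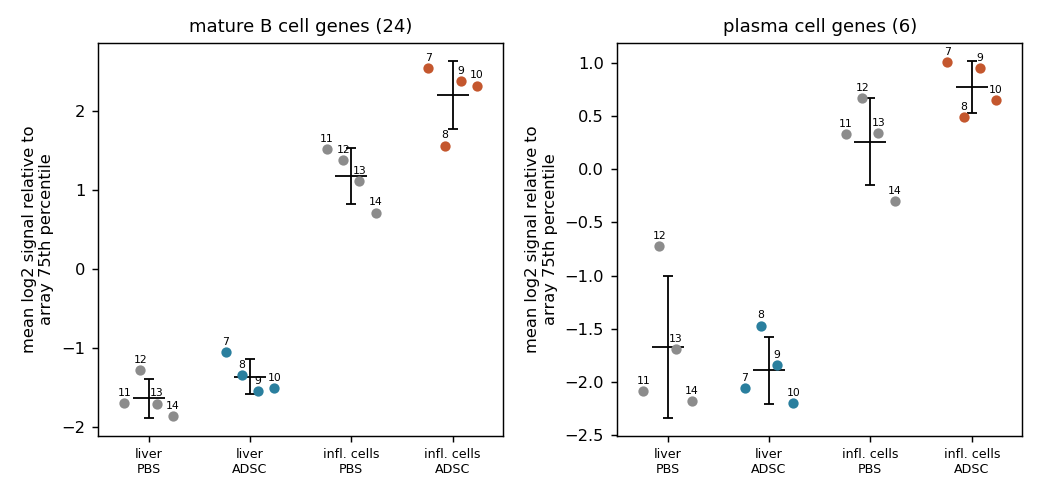
Mean log2 signal relative to the array 75th percentile over 24 mature B cell genes (left) and 6 plasma cell genes (right), 1 point per array with its number, and the mean and SD of each group of 4. Inflammatory cell ADSC 8 lies at 1.56 for mature genes, beside PBS 11 at 1.51, and the plasma cell groups overlap.

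A few arrays set the extremes. ADSC 8, the dimmest array, was the lowest ADSC array for 27 of 31 members. PBS 14 was the lowest of all 8 arrays for 18 members and ADSC 7 the highest for 16. Within slide 2, which held PBS 11 and ADSC 8, 17 of 31 members were above 0 with a mature median of 0.05. Within slide 3, which held PBS 12 and ADSC 7, 26 were above 0 with a mature median of 1.1. Other slides held no pair of inflammatory cell treatments. The plasma cell median was 0.13 within slide 2 and 0.07 within slide 3, below the pooled 0.61. Within scan days 2 and 3 the mature median was 0.64 and 1.18, and the plasma cell median 0.27 and 0.43. Scan day 1 held no ADSC array of inflammatory cells.

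Genes of other cells also moved in this comparison. All 10 neutrophil genes fell, with a median of -4.16, and their list mean ran from 5.00 to 6.93 on PBS arrays and 1.65 to 2.55 on ADSC arrays. Of 10 monocyte and macrophage genes 8 lay below 0, all 8 at an unadjusted p under 0.05, and 3 were called lower (median -1.42). Of 8 T cell genes 0 were called (median -0.02, with 0 at an unadjusted p under 0.05). Levels are relative to each array's 75th percentile, and the part of the neutrophil difference in the B lineage values was not tested. Without the 3 arrays with high pancreas genes, 0 members were called, as were 0 of 18769 genes, and the mature median was 1.27.

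Other lists related to B cells held no called gene, and 18.5% of all genes had an unadjusted p under 0.05 in either direction. Not all of their genes are particular to the B lineage. Of the 11 secretory machinery genes, 9 were called lower in inflammatory cells than in liver and 2 higher. Among all genes in that comparison, 35.4% were called lower. Of 20 B cell receptor signalling genes 0 were called (4 at an unadjusted p under 0.05; median -0.09). Of 9 naive and follicular genes 0 were called (2 unadjusted; median 0.53), led by Ciita, the regulator of MHC class II, at 1.39 ± 0.32, and Ccr7 at 1.33 ± 0.35. Of 11 genes of the plasma cell secretory machinery 0 were called (3 unadjusted; median -0.12), and of 3 germinal centre genes 0 (1 unadjusted; median -0.52). Of 8 marginal zone and B1 genes 0 were called (3 unadjusted; median 0.20), with Cd9 at -1.19 ± 0.29, and of 4 early B cell genes 0 (2 unadjusted, both lower; median -0.64), with Cd93 at -0.85 ± 0.28. Of 8 B cell niche factors 0 were called (2 unadjusted; median 0.24). None of the 13 immunoglobulin genes listed had a named probe. Over the 8 inflammatory cell arrays, the genes outside all lists that followed the 13 B lineage restricted genes most closely were Fcrl1 (r = 0.97), Scd1 (0.968), H2-Ob (0.963), Bend5, H2-DMb2 and Cep43 (0.96), Lmo2 (0.953), Ccr6 (0.952), Chst3 (0.951) and Bcar3 (0.944), chosen from 12040 candidates.

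In whole liver, 0 of 23 tested members were called, as were 0% of 17321 genes by limma. At an unadjusted p under 0.05 there were 2, Cd22 and Vpreb3, where 4.64% of all genes reached that. Cd22 read -1.47, -1.63, -1.47 and -1.85 on PBS 11 to 14 and -0.75, -1.15, -1.08 and -1.31 on ADSC 7 to 10. Every ADSC liver was above every PBS liver, by 0.53 ± 0.15 (limma adjusted p = 0.913). Cd22 was the single tested member without overlap, where 1.66% of all genes were higher in this way. The other Cd22 probe, above background on only 2 of the 16 arrays, differed by -0.11. Vpreb3 differed by -0.37 ± 0.15 at its brightest probe. Its other probe, above background on all 16 arrays, differed by 0.1, so the Vpreb3 probes disagree in sign. The median was 0.13 for mature genes and -0.23 for plasma cell genes, against 0.04 over all genes. The plasma cell median was 0.07 without liver PBS 12 and 0.15 with array weights, so its sign turned.

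The plasma cell genes Jchain and Mzb1 varied more between livers than between treatments. Sdc1 and Prdm1 spanned only 0.64 and 0.74 over the livers, and the mature gene Ms4a1 spanned 1.85. Jchain read 0.32, 3.13, 1.92 and 0.08 on liver PBS 11 to 14 and -0.03, 2.54, 1.36 and -0.14 on liver ADSC 7 to 10. It spanned a 9.65-fold range with each treatment holding high and low livers, a difference of -0.43 ± 0.81. Mzb1 read -2.54, 0.26, -2.10 and -2.46 on PBS and -2.14, -1.32, -1.99 and -2.69 on ADSC. Liver PBS 12 stood above the other livers for Mzb1 and was the highest PBS liver for 21 of 31 members. It was also the brightest array and had the highest neutrophil list mean of the livers, 4.55, whose part in this was not tested.

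**Figure D4:**
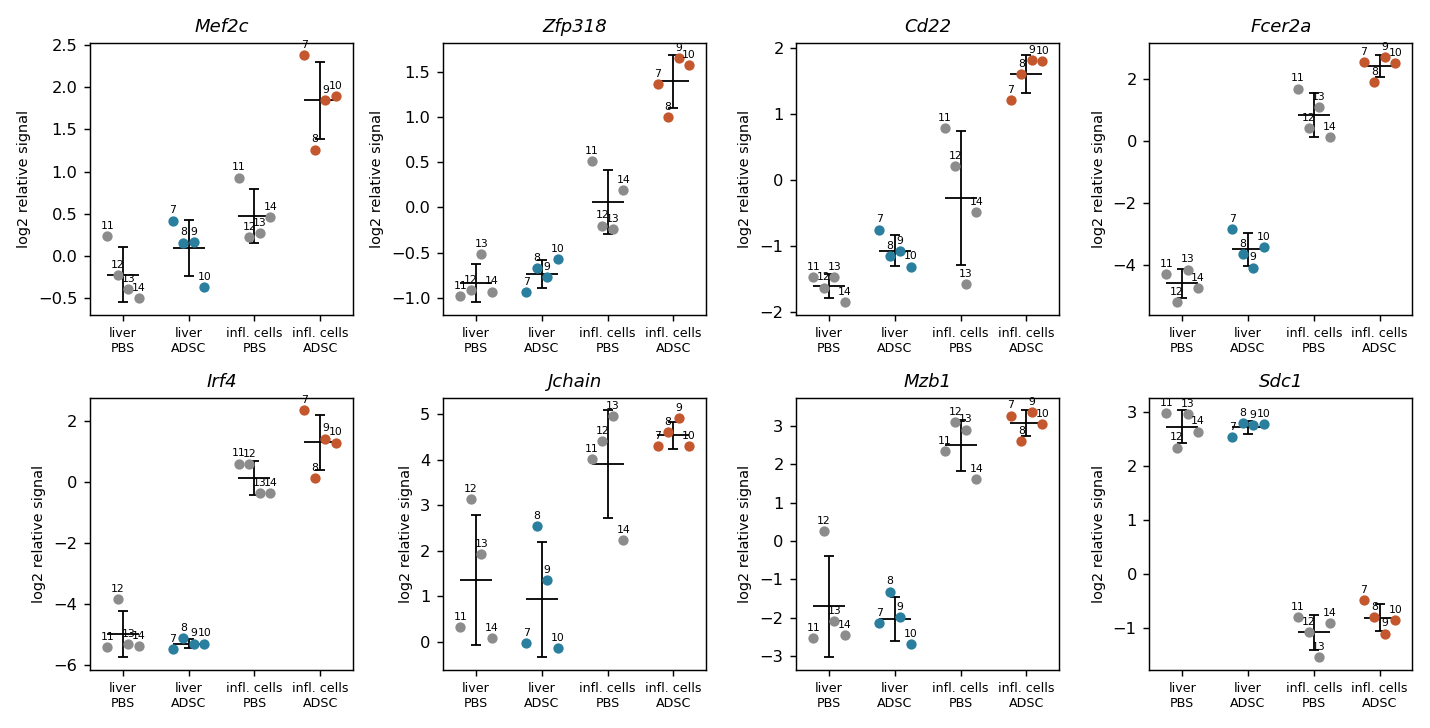
Log2 relative signal of 8 members in the 4 groups, 1 point per array with its number, and the mean and SD of each group of 4; the y axis differs by panel. Mef2c, Zfp318, Cd22 and Fcer2a separate ADSC from PBS in inflammatory cells, Jchain spreads widely in liver, and Sdc1 is higher in liver.

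The test of whether the ADSC difference was larger in inflammatory cells than in liver called 0 of 31 members, where 0.0316% of 22139 genes were called. By unadjusted p under 0.05 there were 8, all more positive in inflammatory cells, where 3.44% of all genes were more positive at that level. Zfp318 had the smallest p, with a difference of differences of 1.23 ± 0.29 (limma adjusted p = 0.141), and Mef2c gave 1.06 ± 0.36 (0.356). The median was 0.80 for mature and 0.88 for plasma cell genes, against -0.03 over all genes. Some members, such as Irf4 and Tnfrsf17, were not above background on every liver, so their difference of differences rests on livers at background. Irf4 (1.49 ± 0.61) was 1 of the 8 members at an unadjusted p under 0.05. With the 22 members above background on every array, the medians were 0.81 for mature and 0.6 for plasma cell genes. The median was then -0.09 over the 12823 genes so filtered, and 0 members were called. So the members' treatment differences in inflammatory cells are not shown to differ from those in liver.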

How the data were processed

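Total RNA was measured on 16 Agilent one-colour arrays. The processed signal is an intensity, per the file headers: the authors' Agilent Feature Extraction 10.5.1.1 subtracted background on each array, with no scaling between arrays. No other processing is given in the sources used here. Outlier and control spots were left out. Log2 signal had the array's 75th percentile subtracted, and spots of a probe were averaged. Symbols came from RefSeq by accession, naming 23374 of 41174 probes. Testing required the brightest probe to exceed background in 4 or more of the arrays fitted.

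Tests used limma 3.58.1 (lmFit, eBayes; R 4.3.3), in separate fits of 8 arrays for ADSC against PBS and 1 fit of 16 for the tissue and interaction contrasts. P-values were adjusted by Benjamini-Hochberg across every gene in a fit, and calls are at 0.05. The fits were tested on simulated data with independent noise on each array, so effects of slide were not covered. In the inflammatory cell arrays the correlation within slides was 0.474, with slide as a random block. "At least" folds set the brighter group's mean against a floor for the dim group, averaged over its arrays: the probe's own signal, or that array's lowest signal above background if larger. The brighter group's mean includes any of its arrays not above background, so such a fold is not a strict lower limit.

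Members and lists were chosen with earlier results of these data known. Any member could be named. From other lists, up to 4 called genes by smallest p were eligible, or the 2 smallest p where fewer than 2 were called, and the 10 genes most like the B lineage restricted list. Not every gene eligible under this rule is reported here. Promoter windows of 300 bases are RefSeq's. Alternatives covered background correction (normexp, offset 50, on the deposited median spot intensity), scaling, filter, probe choice, slide, scan day, weights, prior and arrays left out. The number of arrays limits precision.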

Additional observations from a re-analysis of the deposited data

Results flagged for a closer look

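In 132 groups of 4 arrays (33 genes in 4 groups), 15 held an array far from the other 3 by Dixon's 95% criterion. Chance flags about 1 in 20 such groups, and members share arrays, so these are not 15 separate events.

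Inflammatory cells ADSC 8 was the low array for Cr2 (-0.44), Ebf1 (-0.22), Spib (1.97), Vpreb3 (1.20) and Pou2af1 (2.82). In the PBS inflammatory cells, Bank1 was low on PBS 14 (0.26) and Ly86 high on PBS 13 (5.99).

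Liver PBS 12 was the high array for Fcmr (-0.52), Mzb1 (0.26), Prdm1 (-1.81) and Irf4 (-3.85, the single liver where Irf4 was above background). Zfp318 was high on liver PBS 13 (-0.52). Among ADSC livers, Cd79a was high on ADSC 10 (-1.80), Ebf1 high on ADSC 8 (-2.15) and Sdc1 low on ADSC 7 (2.53).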

How the results depend on the processing

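In inflammatory cells the count of members higher with ADSC, 2, was 0 with no filter, with slide as a fixed block, with scan day as a term and without the 3 arrays with high pancreas genes. It was 5 with probes above background on every array, 5 with trend and robust priors, 7 in the fit of 16 arrays and 19 with array weights. The calls over all genes moved too, from 27 of 20165 higher in the main fit. In the settings with 0 members they were 17 of 33269, 0 of 20165, 8 of 20165 and 0 of 18769, in that order. In the settings with more members they were 40 of 16450, 48 of 20165, 239 of 22139 and 2669 of 20165. Leaving out each array gave 0 to 5. Slide as a fixed block moved the mature median to 0.64 and the plasma median to 0.27. Scan day moved the plasma median to 0.24 and the mature minus plasma difference to 0.74, and array weights moved that difference to 0.23 (0.34 to 0.74 with each array left out). In liver the mature median was 0.73 and the difference 0.96 with slide fixed, and the mature median 0.52 with scan day.

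For the difference between tissues in the ADSC effect, normexp with quantile normalization gave 1 member higher, where 18 of 22139 genes were called higher. Its mature minus plasma difference was 0.43. Array weights gave 3 members higher, where 323 of 22139 genes were. Scan day gave medians of 0.45 and 0.39, and leaving out each array gave plasma medians of 0.44 to 1.12. Against liver, the mature median was 2.01 with normexp, 3.71 with the percentile over detected probes, 2.98 with quantile normalization, 1.77 with both corrections and 2.01 with probes above background on every array. The plasma medians were 1.84, 1.67 and 2.22 for normexp, both corrections and the strict filter, with differences of 0.17, 0.11 and -0.21. Leaving out each array gave differences of 0.23 to 0.79. The strict filter tested 22 members. For the other settings the cause was not tested.

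Blnk against liver became 0.44 with quantile normalization and 0.42 with both corrections. A sign change was counted as a reversal only where a value was called; uncalled signs also turned 7 times in inflammatory cells, 41 in liver, 28 in the difference between tissues and 4 against liver. Numbers shared between tissues were tried as a replicate block: the counts stayed at 29 higher and 1 lower against liver and 0 for the difference. Deviations of same-numbered arrays correlated from -0.0607 to 0.169, and 3 of 8 numbers matched their own liver best, so the number was not taken as a pairing.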

Other observations

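Jchain's order over the livers looked like its order over inflammatory cells of the same number, which was seen in the values first. The same comparison was therefore made for all 31 tested members over the 8 numbers. By Pearson's r, 0 passed an exact two-sided permutation test after Benjamini-Hochberg adjustment (smallest adjusted p = 0.384, and 1 at an unadjusted p under 0.05). For Jchain r was 0.484 (exact permutation p = 0.153, adjusted 0.678), Spearman's rho 0.587 (p = 0.134, adjusted 0.663), and r was 0.585 without the 2 livers farthest from the median. These values pool the treatments; as deviations from the treatment means, r for Jchain was 0.611.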
